A study of Mus musculus with 22 samples.

Results

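Early carcinoma of the PyMT mouse was compared with the normal mammary gland of age-matched controls at week 10. The comparison used 6 of the 22 samples, 3 labelled PyMT early carcinoma and 3 labelled FVB mammary gland, chosen by their sample titles. The PyMT mice were F1 females, heterozygous for the polyomavirus middle T transgene under the MMTV promoter, and were bred from transgenic males and FVB females. The controls were homozygous FVB females of the same age without the transgene. Bulk tumors and whole normal glands were snap frozen and profiled by ERRBS (Enhanced Reduced Representation Bisulfite Sequencing), in which enzyme cutting favors CpG-rich DNA and bisulfite treatment separates methylated from unmethylated cytosines. Of 1470798 autosomal CpG cytosines covered in at least 1 of the 6 samples, 1230630 were covered by at least 10 reads in all 6 and were compared. The strands of a CpG count as separate positions. PyMT carries an oncogene that MMTV drives mainly in mammary epithelium, so these tumors are of epithelial origin, whereas a normal gland holds a large fat pad around thin ducts. In bulk tissue, a different share of cell types and a different methylation level within one cell type cannot be told apart.

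A methyl group on the cytosine of a CpG is copied when DNA replicates. CpG-rich promoters (CpG islands) are mostly free of methylation in normal tissue, whereas CpG-poor DNA between genes, in gene bodies and in repeats is mostly methylated. Tumors are known for loss of methylation in CpG-poor DNA together with gains at some islands, many of them at developmental genes held by Polycomb complexes. Promoters and enhancers of genes used by a cell lineage tend to be unmethylated in that lineage, so methylation also carries a record of cell type.

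The sequences below are stretches of mm10 (GRCm38.p6, the same coordinates) in which the differences were largest or where a named promoter changed. Each was the stretch of 200 bases holding the most tested positions and no untranslated exon, and is written 5′ to 3′ on the strand given, with the tested CpGs in capitals. Stretches of the Mab21l1 promoter (chr3:55783464-55783663, plus strand, coding exon), the Angpt2 promoter (chr8:18740241-18740440, minus strand, noncoding) and the gene body of Shroom1 (chr11:53463712-53463911, plus strand, coding exon) gained methylation in PyMT mice. Losses are shown for stretches near the start of Mir200c (chr6:124718715-124718914, minus strand, noncoding), near that of Foxi1 (chr11:34207817-34208016, minus strand, coding exon) and near that of Cldn4 (chr5:134946187-134946386, minus strand, coding exon), and for the gene bodies of Zbtb40 (chr4:136995266-136995465, plus strand, coding exon) and Map7 (chr10:20233338-20233537, plus strand, partly coding).
Mab21l1: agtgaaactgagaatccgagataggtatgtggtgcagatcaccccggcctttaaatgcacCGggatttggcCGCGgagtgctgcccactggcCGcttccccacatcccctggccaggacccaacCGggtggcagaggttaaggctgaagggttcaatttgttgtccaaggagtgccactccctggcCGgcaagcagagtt
Angpt2: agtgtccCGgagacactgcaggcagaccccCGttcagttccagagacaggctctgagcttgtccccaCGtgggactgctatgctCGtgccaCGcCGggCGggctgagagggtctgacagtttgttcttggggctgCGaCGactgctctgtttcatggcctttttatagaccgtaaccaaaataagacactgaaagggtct
Shroom1: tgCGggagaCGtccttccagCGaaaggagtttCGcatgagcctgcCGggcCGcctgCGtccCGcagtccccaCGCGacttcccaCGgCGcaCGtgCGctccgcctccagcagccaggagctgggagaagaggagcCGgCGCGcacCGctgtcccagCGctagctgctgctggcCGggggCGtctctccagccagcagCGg
Mir200c: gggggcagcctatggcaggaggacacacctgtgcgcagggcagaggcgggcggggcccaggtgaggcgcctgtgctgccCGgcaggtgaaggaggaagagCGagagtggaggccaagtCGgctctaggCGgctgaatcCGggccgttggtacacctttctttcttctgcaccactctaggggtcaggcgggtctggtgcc
Foxi1: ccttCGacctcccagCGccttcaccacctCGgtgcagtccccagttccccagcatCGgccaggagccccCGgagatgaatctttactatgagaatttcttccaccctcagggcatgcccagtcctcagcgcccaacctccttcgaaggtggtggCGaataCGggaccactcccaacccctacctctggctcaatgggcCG
Cldn4: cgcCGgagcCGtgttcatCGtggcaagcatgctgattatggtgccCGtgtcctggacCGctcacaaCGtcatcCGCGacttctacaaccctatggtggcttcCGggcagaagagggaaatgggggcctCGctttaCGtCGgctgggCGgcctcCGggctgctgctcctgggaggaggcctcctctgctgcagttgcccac
Zbtb40: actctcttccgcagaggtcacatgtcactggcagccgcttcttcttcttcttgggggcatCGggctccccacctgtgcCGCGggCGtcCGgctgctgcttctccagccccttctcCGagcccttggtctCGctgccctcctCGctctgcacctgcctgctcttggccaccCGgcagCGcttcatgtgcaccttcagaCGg
Map7: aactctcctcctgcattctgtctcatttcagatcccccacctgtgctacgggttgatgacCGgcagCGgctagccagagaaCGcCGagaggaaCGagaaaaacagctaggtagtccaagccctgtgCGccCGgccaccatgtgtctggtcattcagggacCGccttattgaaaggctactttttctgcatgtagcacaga

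In the Mab21l1 stretch the 8 tested positions averaged 82.5, 79.0 and 85.4% methylation in the 3 PyMT mice and 19.9, 17.1 and 18.97% in the 3 FVB mice. In the Shroom1 stretch the 24 tested positions averaged 77.7, 70.3 and 72.5% in PyMT and 10.1, 8.93 and 11.8% in FVB. The Zbtb40 stretch went the other way, with 14 positions at 16.6, 20.3 and 21.6% in PyMT and at 91.9, 91.0 and 89.5% in FVB. All tested positions in these 3 stretches passed the threshold for a differentially methylated cytosine (DMC) described below, 8 and 24 as gains and 14 as losses.

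Mean autosomal methylation was lower in early carcinoma. It was 25.1, 25.4 and 25.04% in the PyMT mice against 26.6% in each of the FVB mice, means of 25.2 ± 0.223% and 26.6 ± 0.00861% (SD, n = 3 each). The difference of -1.41 percentage points had p = 0.1 in the two-sided exact permutation test, the smallest value that 3 against 3 mice allow, and the groups did not overlap. Pooling the reads of all positions, which weights deeply covered positions more, gave a smaller difference of -1.09 points (exact permutation p = 0.3), and there the groups overlapped.

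The small mean difference hid opposite changes in CpG-rich and CpG-poor DNA. Within 500 bp of a transcription start site (TSS), where 573701 of the positions lay, the PyMT mice had 2.005, 2.05 and 1.92% methylation and the FVB mice 1.74, 1.78 and 1.77%, a gain of 0.228 points. Exons outside promoters lost 1.97 points, introns lost 3.41 points and intergenic positions lost 4.88 points, as differences of -1.97, -3.41 and -4.88. CpG density ordered the losses in the same way. Positions with 0 to 4 CpGs in the surrounding 501 bp stood at 64.1, 65.7 and 64.9% in PyMT and at 75.2, 74.9 and 75.2% in FVB, a difference of -10.2 points. At densities of 5 to 9 and of 10 to 19 CpGs the differences were -6.48 and -3.39 points, at 20 to 29 it was -0.147 points with overlapping groups, and at 30 to 39 and at 40 or more it turned to gains of 0.59995 and 0.379 points. Each of these classes except that of 20 to 29 CpGs separated the 3 PyMT from the 3 FVB mice, with p = 0.1, the smallest possible, in exact permutation tests.

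Repeats between genes lost the most among the annotated classes. At 46187 intergenic positions in repeat-masked DNA, the PyMT mice had 72.9, 74.8 and 74.5% and the FVB mice 81.8, 81.8 and 82.1%, a difference of -7.87 points. Grouped by the level in FVB mice of weeks 6, 8 and 12, which are other animals, positions at 0 to 10% gained 0.346 points and positions at 50 to 70% changed by -7.97 points. Positions at 90% or more changed by -2.63 points. PyMT replicate 2 lay closest to the controls in each class with a loss that separated the groups.

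**Figure D1:**
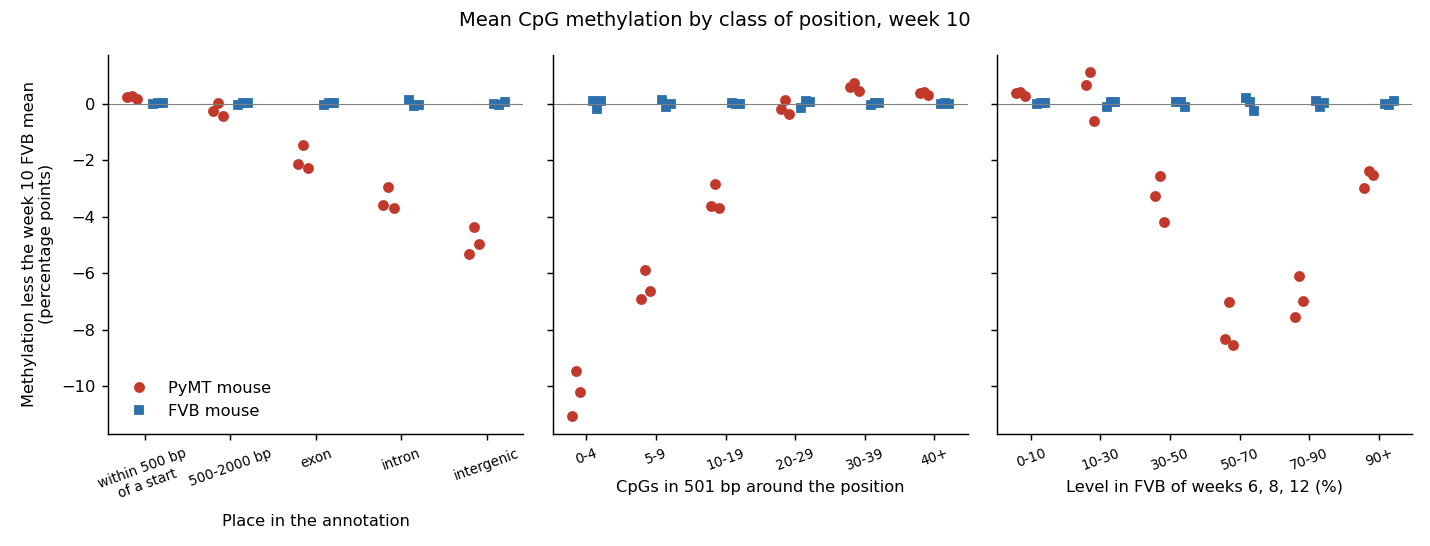
Mean methylation of each week 10 mouse less the mean of the 3 FVB mice, in percentage points, for classes of position by annotation (left), by the number of CpGs in the surrounding 501 bp (middle) and by the level in FVB mice of the other weeks (right). Circles are the 3 PyMT mice and squares the 3 FVB mice. PyMT mice lie below the controls in CpG-poor and intergenic classes, by up to 10.2 points on average, and slightly above them within 500 bp of a start.

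At single cytosines, 50677 were hypermethylated and 100055 hypomethylated in early carcinoma (logistic likelihood ratio test on reads, at least 10 points between the pooled levels and a Benjamini-Hochberg adjusted p under 0.01), which is 4.12% and 8.13% of the positions tested. Of these, 19612 and 50869 differed by at least 25 points and 5043 and 19274 by at least 40 points. A correction for the extra spread between mice left 27956 hyper- and 61816 hypomethylated positions. Of positions whose groups also did not overlap there were 41883 and 85944. Hyper-DMCs outnumbered hypo-DMCs within 500 bp of a TSS (6267 against 3365, or 1.09% and 0.587% of the positions there). Between genes hypo-DMCs outnumbered hyper-DMCs (43678 against 13871, or 20.4% and 6.47%). Per position, both kinds were thus more frequent between genes than near a TSS. The strands of a CpG, which are sequenced from separate molecules, mostly went together. Where the opposite strand was also tested, it was called the same way for 62.2% of the hyper-DMCs and 67.5% of the hypo-DMCs, and the opposite way for 0.0785% and 0.0538%.

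To compare mice rather than reads, methylation was averaged in 500-bp windows with at least 5 positions and tested with limma. Of 58234 windows, 2724 (4.68%) were higher and 5516 (9.47%) lower in PyMT at an adjusted p under 0.05 and a difference of at least 10 points. The lower windows had a median level of 71.3% in FVB and 40.4% in PyMT, and the higher ones 46.2% and 72.2%. Most changes were therefore partial, and 63.8% of the lower and 62.4% of the higher windows had a PyMT mean between 20 and 80%. Among the windows, 17.6% of intergenic ones were lower and 6.37% higher, against 1.05% and 1.22% of those within 500 bp of a start. Of the 3317 windows with mostly repeat-masked positions, 554 were lower and 16 higher. Windows that stood under 10% in FVB of the other weeks had 260 gains and 13 losses of 28324. The changes were short. Adjacent windows called in the same direction formed runs of at most 5 windows (2.5 kb), the longest in Zfp316 among the gains and in Fignl2 among the losses.

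Among the named windows, the largest losses were in gene bodies. The window in Zbtb40, a zinc finger gene (chr4:136995001-136995500), fell by 71.3 points (SE 2.32, adjusted p = 0.00100). The Map7 window, in a microtubule-associated protein gene (chr10:20233001-20233500), had 12.2, 20.3 and 16.1% in PyMT and 85.7, 85.7 and 85.1% in FVB, a difference of -69.3 points (adjusted p = 0.00100). In Nr4a1, an orphan nuclear receptor gene, the window chr15:101270001-101270500 in an exon had 15.1, 21.1 and 18.02% against 83.7, 86.7 and 83.3%. Further losses of 60.9 to 64.1 points, given as -60.9 to -64.1, lay in Ddx54, Kcnq1, Fam110a, Gm5134 and Frmd5. The largest gain was in an exon of Proser2 (chr2:6100001-6100500), with 73.9, 65.4 and 78.6% in PyMT and 4.85, 8.36 and 13.5% in FVB, a difference of 63.7 points (SE 4.93, adjusted p = 0.00156), and the next window of the same gene gained 56.4 points. Exons of Shroom1 and Epn3, genes of an apical actin-binding protein and an endocytic adaptor, gained 63.2 and 62.3 points. A window 144 bp from an annotated start of Shank2, a postsynaptic scaffold gene, gained 62.4 points. In all 16 named windows the 3 PyMT mice lay on one side of the 3 FVB mice.

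Promoters were taken as 2 kb on each side of each curated RefSeq TSS of a gene. Of 15271 promoters with at least 5 positions, 287 (1.88%) were higher and 440 (2.88%) lower in early carcinoma at an adjusted p under 0.05 and a difference of at least 10 points. In every one of these the groups did not overlap, which such a threshold makes likely. The median difference over all promoters was -0.000635 points, since 12556 of those with control values stood under 10% in FVB of the other weeks, and of these 71 were higher and 1 lower. Without the size threshold 1539 (10.1%) were higher and 1486 (9.73%) lower. Promoters with at least 40 CpGs per 501 bp had 33 gains and 6 losses of 7525, and those with 5 to 9 CpGs had 20 gains and 116 losses of 353. Among 377 microRNA promoters 27 were higher and 34 lower, and among 13379 protein-coding ones 210 and 305. MicroRNA genes are annotated as short stretches (chr6:124717914-124717985 for Mir141). Their promoters here are the regions around these stretches, and may lie away from where the longer precursor transcript starts.

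**Figure D2:**
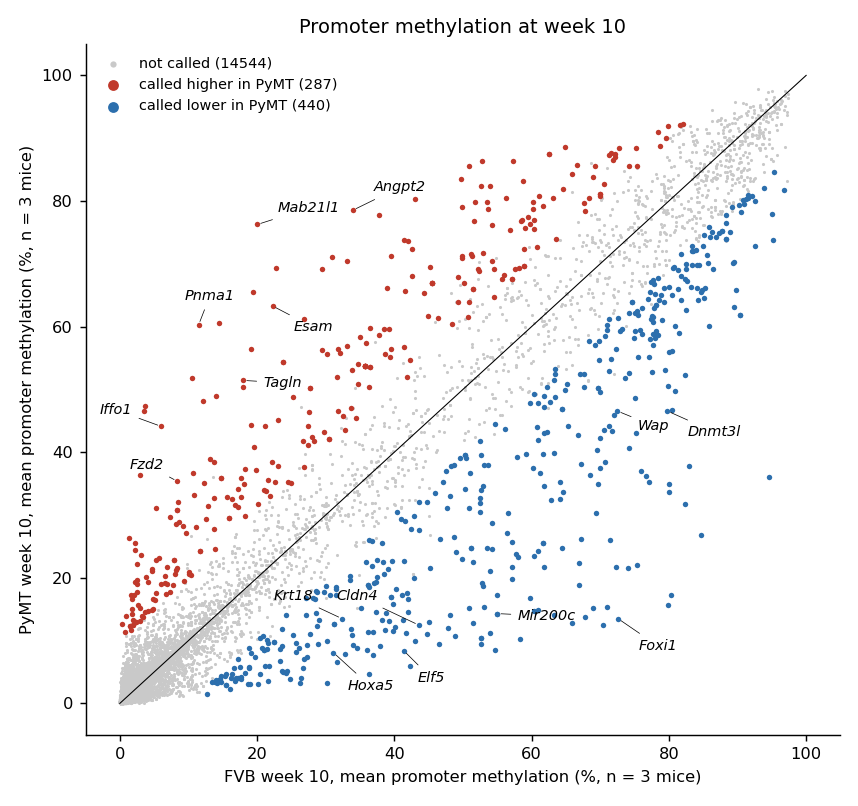
Mean promoter methylation in the 3 FVB mice (horizontal, %) against the 3 PyMT mice (vertical, %) at week 10, one point per promoter, for 15271 promoters. Red points are the 287 called higher and blue points the 440 called lower in PyMT, grey points were not called, and the line marks equal levels. Mab21l1 and Angpt2 lie far above the line and Foxi1 and Mir200c far below it.

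Of the 287 promoters called higher, 11 gained at least 40 points. Among those with at least 10 positions, the 12 largest gains lay between 35.0 and 56.2 points. Mab21l1, a gene of eye and neural development (chr3:55782510-55785287), had 77.1, 75.04 and 76.6% in PyMT and 21.9, 17.5 and 20.7% in FVB over 18 positions, a gain of 56.2 points (SE 1.85, adjusted p = 0.000144). Its relative Mab21l2 had 62.8, 68.2 and 65.6% against 22.5, 15.2 and 20.3% (adjusted p = 0.000342). Both genes were low in all 3 controls and high in all 3 tumors. Angpt2, a ligand of the endothelial receptor TIE2 that loosens vessels, had 77.5, 76.4 and 81.8% against 35.1, 29.9 and 36.9%, a gain of 44.6 points (SE 2.59, adjusted p = 0.000370). The 15 tested positions of Angpt2 lay 1129 to 1689 bases downstream of its first annotated start. Esam, an adhesion molecule of endothelial cells, had 70.03, 62.2 and 57.6% against 18.2, 21.3 and 27.2%, a gain of 41.0 points (SE 3.81, adjusted p = 0.00116). Mdk, the gene of the growth factor midkine, was uneven among the tumors, at 65.9, 67.5 and 48.2% against 14.9, 14.1 and 14.3%, with PyMT replicate 3 the lowest. Pnma1, a neuronal antigen gene, rose from 11.5 to 60.3% on average (adjusted p = 0.000342).

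Iffo1, an intermediate filament family gene, had 43.9, 48.0 and 40.5% in PyMT and 7.004, 4.83 and 6.22% in FVB. Ackr3, an atypical receptor that scavenges the chemokine CXCL12, had 57.8, 59.9 and 51.6% against 16.2, 18.5 and 22.5%, a gain of 37.4 points (SE 2.76). Lyl1, a blood-forming transcription factor gene, Shank2 and L1td1 gained 37.5, 36.0 and 35.0 points. The gain in L1td1, a domesticated gene derived from a LINE-1 element, was seen at all 19 of its tested positions as hyper-DMCs. Gm13205 gained 39.9 points over 65 positions.

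The losses were named with the same minimum of 10 positions. Among them, Foxi1, a forkhead factor of ion-transporting epithelial cells (chr11:34204341-34208089), had 11.8, 17.1 and 11.6% in PyMT and 72.6, 75.1 and 70.1% in FVB, a difference of -59.1 points (SE 2.28, adjusted p = 0.000188). All 11 of its positions were hypo-DMCs. Fam83a, a gene of growth factor receptor signaling, had 6.36, 13.5 and 10.9% against 64.5, 55.4 and 55.01% (adjusted p = 0.000496). Nup210l, a nucleoporin-like gene of the testis, had 33.8, 33.8 and 33.5% against 78.3, 80.7 and 81.1%. Klhdc7a and Mir2139, whose 25 and 46 positions overlap in 25, fell by 46.2 and 49.2 points. Losses of 41.1 to 54.0 points, given as -41.1 to -54.0, were also seen at Gm829, Mir6926, Mir3102, 9330188P03Rik, Gm10863 and Pilra.

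Mir200c and Mir141, neighboring microRNA genes of chromosome 6 that keep epithelial cells from a mesenchymal state by targeting Zeb1 and Zeb2, share the same 21 positions. These had 13.9, 12.8 and 16.2% methylation in PyMT and 58.6, 59.1 and 47.3% in FVB, a difference of -40.7 points (SE 3.38, adjusted p = 0.000923), and 20 of the 21 were hypo-DMCs. The mature sequences are given because the seed (bases 2 to 8, in capitals) sets the targets, and the pair carries both seeds of the miR-200 family.
miR-200c-3p: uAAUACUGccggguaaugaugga
miR-141-3p: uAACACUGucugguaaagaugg
The remaining members of the family lie on chromosome 4, and their promoters were not among those tested. MicroRNA levels were not analysed here.

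**Figure D3:**
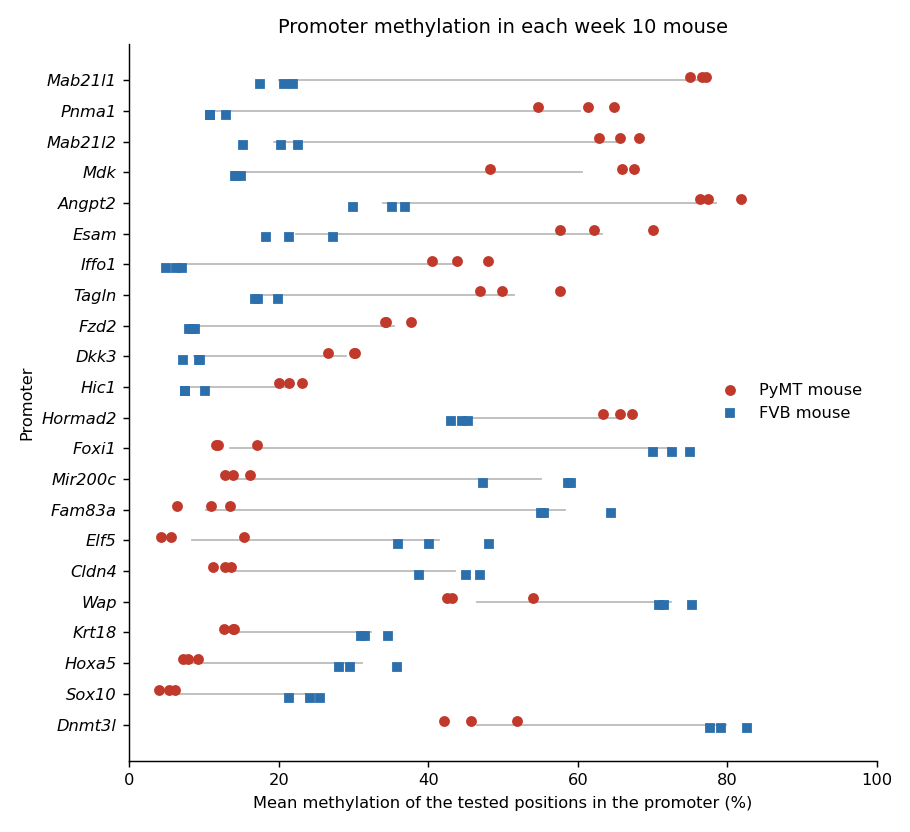
Mean promoter methylation (horizontal, %) of each of the 3 PyMT mice (circles) and 3 FVB mice (squares) at week 10 for promoters named in the text, with a line joining the group means. Within each promoter shown the groups do not overlap, as for Mdk, where PyMT replicate 3 stands apart at 48.2%.

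The tissue labels were checked through promoters of genes that mark the cell types of a mammary gland, since RNA was not analysed here. Of 32 luminal epithelial genes listed, 25 were tested, and 5 were lower and none higher (of all promoters 2.88% were lower and 1.88% higher), with a median difference of -2.28 points. At any size 16 were lower and 1 higher, against 9.73% and 10.1% of all promoters. Elf5, a factor that specifies milk-producing alveolar cells, had 5.52, 15.4 and 4.28% in PyMT and 40.1, 48.1 and 35.9% in FVB (difference -33.0 points, SE 4.07, adjusted p = 0.00294). Its 9 tested positions lay 11506 to 12417 bases from the first annotated start, near later starts. Cldn4, a tight junction gene, had 11.1, 12.8 and 13.5% against 44.97, 46.9 and 38.8%. Wap, a milk protein gene, had 43.2, 53.9 and 42.5% against 70.8, 75.3 and 71.5%. Krt18, a keratin of simple epithelia, had 13.9, 12.6 and 14.1% against 31.0, 34.6 and 31.5%, but within 500 bp of its start the difference was only -5.46 points. Csn3, a casein gene, fell by 13.1 points. Averaged over the 25 promoters, the level was 6.07 to 7.63% in PyMT and 13.1 to 14.6% in FVB. Esr1, the estrogen receptor gene, did not separate the groups, with 17.9, 15.03 and 14.1% against 17.7, 15.3 and 14.5%.

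The basal, endothelial and fibroblast lists each held 1 lower call and 1 or 2 higher ones, where of all promoters 1.88% were higher and 2.88% lower. At any size 2 of 12 basal promoters were higher and 4 lower. In the endothelial list 7 of 17 were higher and 2 lower at any size, and in the fibroblast list 9 of 21 and 1. Of all promoters 10.1% were higher and 9.73% lower at any size. In the basal and myoepithelial list 1 of 12 was higher and 1 lower. Tagln, a smooth muscle actin-binding protein gene, had 57.6, 49.8 and 46.8% in PyMT and 17.2, 16.8 and 19.9% in FVB (gain 33.4 points, SE 2.91, adjusted p = 0.000974). Krt5, the basal keratin gene, had 61.0, 62.1 and 54.9% against 73.7, 76.6 and 68.1% (adjusted p = 0.0253), a call that ended without PyMT replicate 1 or 3 or FVB replicate 1 or 2 (adjusted p up to 0.0866). In the endothelial list 2 of 17 were higher, Esam and Mmrn2, and Eng, a vascular TGF-beta coreceptor gene, was lower with 19.2, 23.1 and 25.7% against 42.8, 36.9 and 44.4%. Mmrn2, an endothelial matrix gene, had 35.4, 20.5 and 36.7% against 7.27, 9.78 and 8.12%, and its call ended without PyMT replicate 1, FVB replicate 1 or FVB replicate 3 (adjusted p up to 0.0549). In the fibroblast and mesenchymal list 2 of 21 were higher. These were Loxl1, a collagen crosslinking enzyme gene, with 31.7, 29.8 and 26.4% against 10.9, 11.03 and 15.8%, and Col1a1, the type I collagen gene, with 20.9, 21.2 and 21.6% against 7.63, 8.94 and 8.08%. Meox1, a mesodermal homeobox gene, was lower, by a difference of -19.4 points.

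Of the leukocyte genes 1 of 13 tested was higher, Spi1, with no higher call left without PyMT replicate 1 or 2 or FVB replicate 1 or 2, and 4 were lower, against 1.88% and 2.88% of all promoters. Among the 4 were Cd8a, Vav1 and Zap70, with differences of -13.1, -12.9 and -11.4 points. Each of these 3 calls ended when FVB replicate 1 was left out, and adjusted p rose to at most 0.0882. The differences changed little without that mouse, at -12.8, -12.7 and -11.1 points. Leaving out another mouse also ended the calls of Vav1 (any mouse but FVB replicate 3) and Zap70 (PyMT replicate 1 or FVB replicate 2). Without FVB replicate 1 no lower call was left in the list. Of the adipocyte genes none of 15 was higher and 1 was lower, against the same shares of all promoters. It was Lep, the leptin gene, with 40.7, 42.6 and 30.8% against 56.6, 48.1 and 54.5% (adjusted p = 0.0387). Its call held only without PyMT replicate 2 and otherwise ended in each fit that left out a mouse, with adjusted p up to 0.125. Averaged over the adipocyte list, levels were 8.73 to 10.0% in PyMT and 9.80 to 10.4% in FVB and overlapped. The leukocyte list averaged 29.7 to 31.0% and 32.0 to 33.1%, and the endothelial list 19.6 to 20.6% and 15.6 to 17.9%. The part of a changed mix of cells in these values was not tested.

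**Figure D4:**
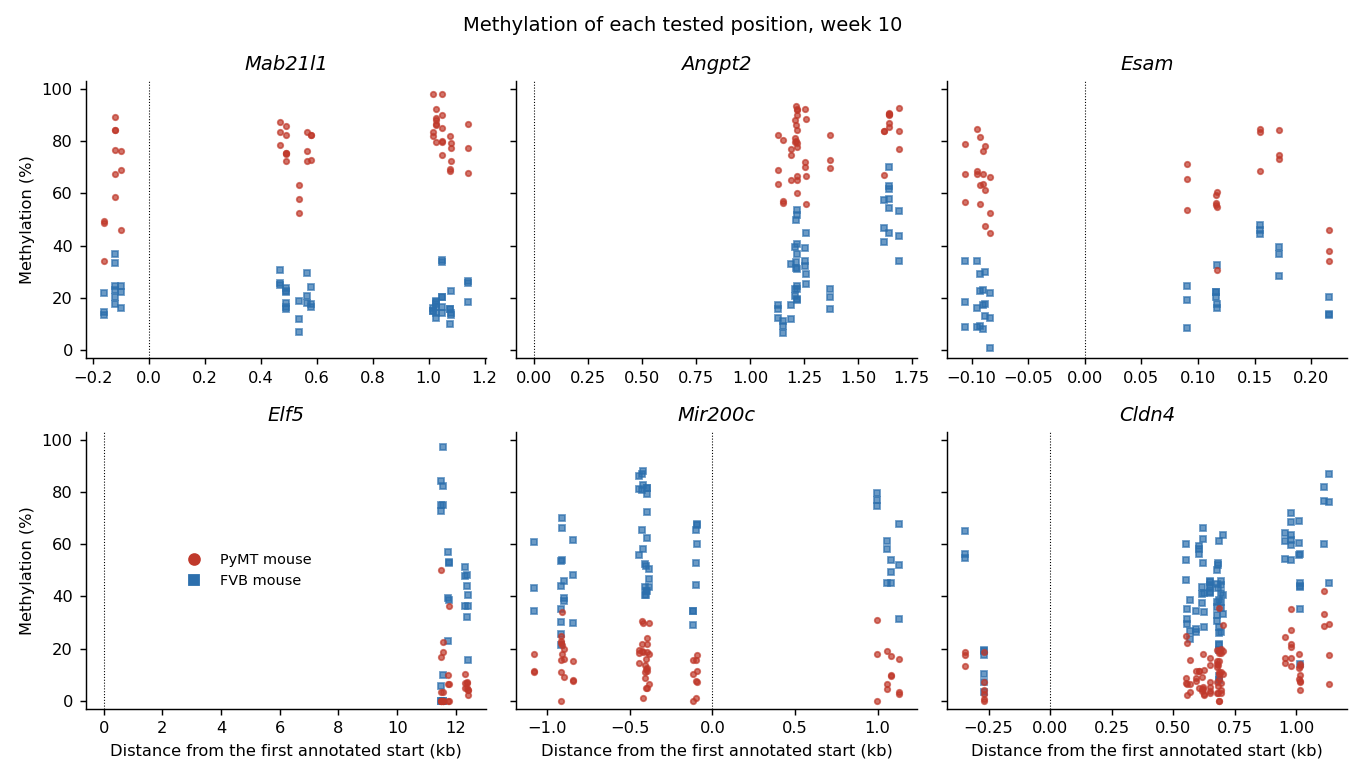
Methylation (%) of each tested position against its distance from the first annotated start of the gene (kb) in 6 promoters at week 10. Circles are the 3 PyMT mice and squares the 3 FVB mice. PyMT values lie above FVB values along Mab21l1 and Angpt2 and at most positions of Esam. They lie below them along most positions of Elf5, Mir200c and Cldn4, where the PyMT averages were 8.39, 14.3 and 12.5%.

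Hox genes, which pattern the body axis and are classic Polycomb targets, were tested at all 39 promoters, and 4 were lower and none higher, where 2.88% and 1.88% of all promoters were. Hoxa5, a mammary tumor suppressor gene, had 7.13, 9.24 and 7.90% in PyMT and 29.6, 35.8 and 28.0% in FVB over 96 positions (difference -23.0 points, SE 2.05, adjusted p = 0.00103), and 84 of these were hypo-DMCs. Hoxb6 had 7.30, 6.01 and 6.94% against 24.98, 28.1 and 16.9%. Hoxc4 and Hoxb5 differed by -12.6 and -10.1 points. The smallest of these, Hoxb5, fell under 10 points without PyMT replicate 1 or 3 or FVB replicate 1 or 2 (down to -9.24 points). Against FVB mice of weeks 6, 8 and 12, Hoxb6, Hoxc4 and Hoxb5 differed by -9.51, -6.40 and -7.77 points, short of the size threshold. In the limma fit of all 22 samples Hoxc4 was not called (adjusted p = 0.111). With pooled reads Hoxb6 was not called (limma adjusted p = 0.0556). Within 500 bp of the start Hoxb6 and Hoxb5 differed by 0.853 and -0.556 points, so their losses lay farther out. Without the size threshold 9 Hox promoters were higher and 8 lower, against 10.1% and 9.73% of all promoters, and the list median was 0.369 points.

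Developmental transcription factors outside the Hox clusters gained little each but often. Of 119 tested promoters none was higher by 10 points, and 1 was lower, against 1.88% and 2.88% of all promoters. Without the size threshold 35 were higher and 6 lower, where 10.1% and 9.73% of all promoters were, and the median difference was 0.571 points. The 1 lower by 10 points was Sox10, a neural crest and mammary stem cell factor, with 3.98, 5.25 and 6.15% in PyMT and 21.4, 25.5 and 24.2% in FVB. Of its 14 hypo-DMCs 13 lay in a stretch at -1705 to -1506 bases from the start, and the 17 positions of the neighboring Gm10863 are all among its 41.

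Among 50 promoters of Wnt pathway genes, which control stem cell renewal, 2 were higher and none lower, a count near the 1.88% and 2.88% of all promoters. At any size 12 were higher and 4 lower, against 10.1% and 9.73% of all promoters. Fzd2, a Wnt receptor gene, had 34.3, 37.7 and 34.2% in PyMT and 8.43, 7.92 and 8.78% in FVB (gain 27.0 points, SE 1.18, adjusted p = 0.000208), while within 500 bp of its start the difference was 0.0881 points (adjusted p = 0.925). Dkk3, a secreted relative of Wnt inhibitors, had 30.2, 30.04 and 26.6% against 7.22, 9.33 and 9.46%. Of 39 tumor suppressor promoters 2 were higher and 1, Hoxa5, was lower, again near the shares of all promoters. Ajap1, a junction protein gene, had 17.4, 19.5 and 15.1% against 1.44, 1.78 and 1.57% over 256 positions, of which 156 were hyper-DMCs. Hic1, a transcriptional repressor gene, had 23.1, 21.4 and 20.1% against 7.42, 7.37 and 10.1%. Brca1, a DNA repair gene, and Cdkn2a, a locus of cell cycle inhibitors, stood at no more than 0.542% and 3.40% in any of the 6 mice, with differences of 0.0482 and -0.223 points.

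Germline genes, which are silenced by methylation in body tissues, were already at a median of 79.4% in FVB, and 4 of 22 were higher and none lower, against 1.88% and 2.88% of all promoters. Hormad2, a meiotic chromosome axis gene, had 67.2, 63.3 and 65.6% in PyMT and 44.5, 43.1 and 45.3% in FVB (gain 21.1 points, SE 1.80, adjusted p = 0.000954). Sycp1, Ddx4 and Mael gained 11.1, 10.3 and 10.1 points, near the threshold, and each call ended without at least 3 of the 6 mice in turn. For Sycp1 these were PyMT replicate 2 and FVB replicates 1 and 2, for Mael PyMT replicate 3 and FVB replicates 1 and 3, and for Ddx4 all but FVB replicate 2. Their differences in these fits went down to 9.14, 9.13 and 8.75 points. Of the 32 genes of Polycomb complexes, DNA methyltransferases, TET enzymes and E2F factors, none was higher and 1 lower, against 1.88% and 2.88% of all promoters. The lower one was Dnmt3l, the cofactor of germline methylation, with 51.9, 42.1 and 45.7% against 77.7, 82.6 and 79.1% over 5 positions. Ezh2 stood at no more than 0.225% in any mouse, and Dnmt1 had 8.43, 8.20 and 8.37% against 8.01, 8.12 and 8.09%. Of 33 growth factor receptor and angiogenic ligand genes only Angpt2 was called, as higher, where 1.88% of all promoters were higher and 2.88% lower. Erbb2, Egfr and Vegfa stood at no more than 1.09%, 0.517% and 0.311% in any mouse. No promoter of 22 imprinted genes was called, against the same shares of all promoters, and the largest difference was that of Mest, 7.27 points (adjusted p = 0.0570).

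Genes that the study had named were counted too, and since it chose them on these samples the counts are not independent evidence of a direction. The study listed genes by single hypermethylated cytosines in the promoter, which is another measure than the promoter mean used here. The genes it named for all stages and for late carcinoma alone were Polycomb targets, picked out of larger sets with such cytosines. Of 40 tested genes listed with promoter gains at all stages, 4 were higher and none lower by at least 10 points, against 1.88% and 2.88% of all promoters. Without the size threshold 17 were higher and 3 lower, against 10.1% and 9.73%. The 4 were Mab21l1, Esam, Cyp26c1, a retinoic acid-degrading enzyme gene with a gain of 24.1 points, and Tmem88, with a gain of 10.9 points that ended without PyMT replicate 1 or 2 or FVB replicate 2 or 3 (adjusted p up to 0.0860). Of 31 tested genes listed with gains at late carcinoma alone, none was higher or lower by at least 10 points at week 10. Of all promoters 1.88% were higher and 2.88% lower. Without the size threshold 11 were higher and 1 lower, against 10.1% and 9.73% of all promoters. In this list 25 of the 31 differences were above 0, against 7566 of 15271 over all promoters. The largest was that of Ripk3, a necroptosis kinase gene, 6.26 points (adjusted p = 0.0107), with 8 hyper-DMCs and 3 hypo-DMCs. Of 13 genes of the epithelial to mesenchymal transition (EMT) listed for week 10, Tagln and Col1a1 were higher and none lower, against 1.88% and 2.88% of all promoters. The study had chosen these 13 for reduced expression as well as promoter hypermethylation. The median difference of the 13 was 1.68 points.

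The differences were compared with those of other mice at the neighboring stages, which share no sample with week 10. At windows called higher at week 10 the median difference was 12.6 points at week 6, 15.3 at week 8 and 20.9 at week 12, against 20.1 at week 10, where the selection was made. At windows called lower it was -15.0, -16.3 and -20.9 points, against -20.4. The direction was the same at 96.97%, 98.9% and 99.5% of the higher windows at weeks 6, 8 and 12. For the lower ones it was the same at 98.6%, 99.5% and 99.86%. These values cover the 2478 higher and 4885 lower windows that could be followed in all 22 samples. Over all 53736 such windows, 41.6%, 49.1% and 45.8% of the differences were above 0 at weeks 6, 8 and 12. A limma fit over all 22 samples then tested whether the PyMT and FVB difference itself changed between weeks. Against week 8 it differed at 0 of 14993 promoters (0%), although 854 had an unadjusted p under 0.05, and at 2 of 53736 windows (0.00372%). Against week 12 it was smaller at week 10 at 12 promoters (0.08%) and at 20 windows (0.0372%), and none was larger.

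Among these 12, Ajap1 averaged 17.3% in PyMT and 1.59% in FVB at week 10 and 28.8% and 1.42% at week 12, a contrast of -11.7 points (SE 1.72, adjusted p = 0.00999). Fam217b, whose 66 positions are also those of Ppp1r3d, a glycogen phosphatase subunit gene, averaged 4.43% and 0.676% at week 10 and 12.3% and 0.560% at week 12 (contrast -7.96 points, adjusted p = 0.000952). Galnt13, a glycosyltransferase gene, and Tunar, a neural long noncoding RNA gene, had contrasts of -6.95 and -5.81 points. Nlrp5-ps had -9.02 points. A fit of the samples of the 2 weeks alone, with 2 PyMT mice at week 12, called 0 promoters, and 933 had an unadjusted p under 0.05.

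**Figure D5:**
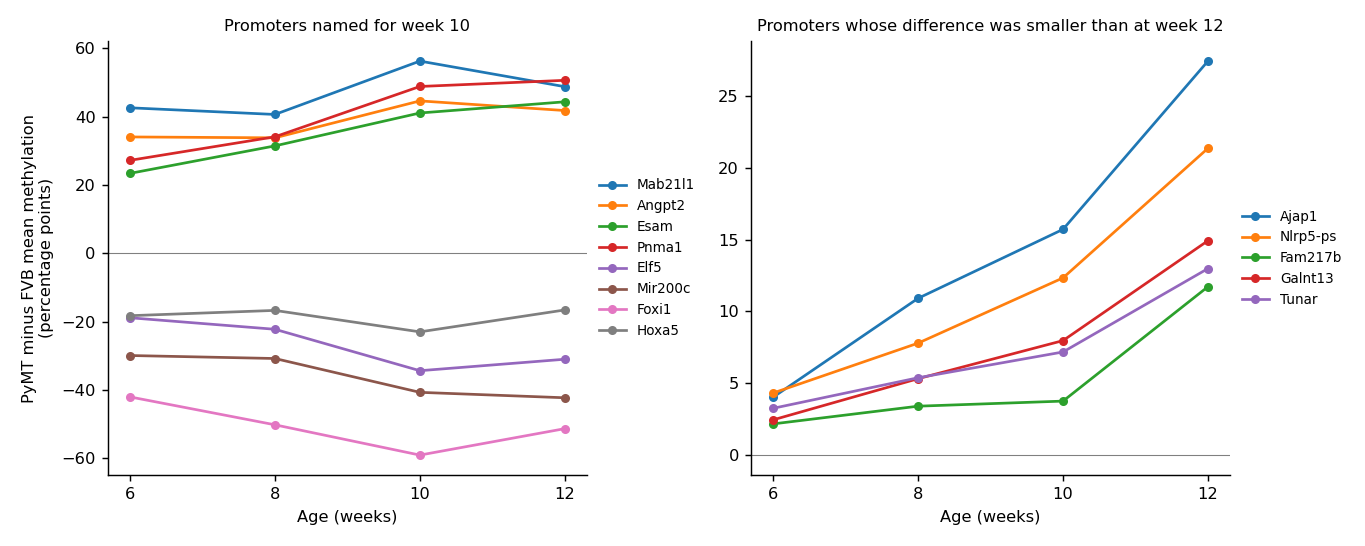
PyMT minus FVB mean promoter methylation (vertical, percentage points) at weeks 6, 8, 10 and 12 (horizontal), for promoters named for week 10 (left) and for promoters whose difference was smaller than at week 12 (right), over positions covered in all 22 samples. PyMT had 2, 3, 3 and 2 mice at the 4 ages and FVB 3 at each. Ajap1 went from 15.7 points at week 10 to 27.4 points at week 12.

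The 6 samples held 1345758 to 1434360 positions each at a mean coverage of 68.9 to 76.3 reads. Mitochondrial CpGs, at 32 to 47 positions, read as 0.181 to 0.242% methylated. Replicates of one group differed by more than sampling noise (mean chi-square of 1.80 to 3.09 per position) and correlated at 0.973 to 0.985 across positions, which are not independent. FVB mice of week 10 did not differ from FVB mice of week 6, 8 or 12 at any window or promoter in limma fits. In these 3 comparisons 4.34 to 4.61% of promoters and 4.45 to 5.35% of windows had an unadjusted p under 0.05, against 30.6% and 33.9% for PyMT against FVB. Among the PyMT mice, replicate 1 lay farthest from the controls at 44.2% of the lower windows and 42.0% of the higher ones, with median differences of -21.9 and 21.0 points.

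Coverage by chromosome was compared because reads also count DNA copies. Chromosome 11 had the largest shift, with a share of reads of 0.0657, 0.0293 and 0.0187 (log2, relative to the FVB mean) in the PyMT mice and of -0.00517, -0.00175 and 0.00692 in the FVB mice. The difference of 0.0379 had an exact permutation p of 0.1, the smallest possible. The exact permutation test also gave p = 0.1 for chromosomes 4, 12 and 14, at smaller differences of 0.00214, -0.00930 and -0.0152. Without PyMT replicate 1 the difference of chromosome 11 was 0.0240. In 10 Mb segments of chromosome 11 it was 0.0824 beyond 120 Mb, with 0.139, 0.0424 and 0.0663 in the 3 PyMT mice. That was the largest gain of any 10 Mb segment compared. Outside chromosome 11 the largest was 0.0286, at 120 to 130 Mb of chromosome 8. A loss elsewhere was larger in size. At 50 to 60 Mb of chromosome 7 the difference was -0.0945, over fewer positions (1259 against 4434). The 3 PyMT mice had -0.0981, -0.101 and -0.0841 there. The windows of chromosome 11 were called in 5.22% and 9.40% of cases as higher and lower, near the 4.68% and 9.47% of all autosomes.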

How the data were processed

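Methylation was measured by ERRBS in mammary tissue, 3 PyMT and 3 FVB mice at week 10. Per the labels and the study's methods, the authors aligned reads to mm10 with Bismark and kept cytosines covered by at least 10 reads. The deposited files give the coverage of each CpG cytosine as a count and its methylated and unmethylated reads as percent values, with the strands apart. Methylated reads were recovered as coverage times percent, and came out whole within 0.05 for at least 99.993% of positions. Tests on reads cover counting error only, since amplified reads are not independent molecules.

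Autosomal positions covered in all 6 samples were annotated with RefSeq genes of GRCm38.p6. Cytosines were tested by a logistic likelihood ratio test on pooled reads, which does not count the spread between mice. Windows and promoters were tested on the mean percent methylation of each mouse with limma 3.58.1 in R 4.3.3 with a mean-variance trend, and p-values were adjusted by Benjamini-Hochberg over all features. Single values had two-sided exact permutation tests. Python 3.11.15 and SciPy 1.17.1 were used, and the code was tested on simulated data. The labels name samples of one group as replicates but do not say how mice were housed or litters shared.

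Named promoters were the 12 largest gains and losses among the 390 called with at least 10 positions and groups apart, up to 4 called members of each of 17 gene lists (or its largest difference), 6 promoters that differed between weeks, and 8 windows in each direction. Esr1, Brca1, Cdkn2a, Ezh2, Dnmt1, Erbb2, Egfr, Vegfa and other genes outside that rule were named after their values were seen. The comparison, its gene lists and its tests were chosen with earlier results of these data known. Alternatives were other coverage minimums, thresholds, promoter widths, controls and fits, and leaving out each mouse. One further alternative, the fit across weeks without FVB week 8 replicate 2, was chosen after seeing the data. The values of 1 called promoter are not reported here.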

Additional observations from a re-analysis of the deposited data

Results flagged for a closer look

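The difference between PyMT and FVB at 6 named promoters was smaller at week 10 than at week 12 by a test of the difference itself (limma over all 22 samples, PyMT n = 2 at week 12). The contrast was -11.7 points at Ajap1, -9.02 at Nlrp5-ps, -7.96 at Fam217b and at Ppp1r3d, which share all their positions, -6.95 at Galnt13 and -5.81 at Tunar. The FVB means of these promoters were between 0.560 and 3.06% at both ages. Groups of 3 mice were too small for a test of single outlying samples.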

How the results depend on the processing

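The autosomal difference was -1.22 points against FVB of weeks 6, 8 and 12 (exact permutation p = 0.00455), and -1.54 to -1.34 when each mouse was left out. Calls are given as higher and lower. For cytosines they were 27956 and 61816 with an overdispersion correction, 19612 and 50869 at 25 points, and 44716 to 49110 and 89620 to 96883 without single mice. For windows they were 1379 and 2846 at 20 points, 827 and 907 with at least 10 positions, 5493 higher without a size threshold, and 1957 to 2465 and 4181 to 5269 without single mice. For promoters they were 96 and 168 at 20 points, 1539 and 1486 without a size threshold, 174 and 179 within 500 bp, 162 and 175 in the 2 kb upstream, and 225 to 307 and 352 to 447 without single mice. For week 12, fitting only the samples of the 2 weeks left differences at 0 promoters and 0 windows. For week 8, a coverage of at least 20 reads left 1 window. Hoxb6 was 0.853 within 500 bp and Hoxb5 1.79 upstream, reversed from the main values. The chromosome 11 shift was 0.0240 to 0.0475 without single mice. The cause of these changes was not tested. The 16 named windows kept their direction and call in all 269 combinations of window and alternative. Of the same combinations for named promoters 961 kept the direction and stayed on the same side of the threshold (promoters not called among them), 5 passed it newly, 2 reversed and the others no longer passed it. With a replicate block the calls were 45800 and 92515 cytosines, 2125 and 4469 windows, and 257 and 401 promoters. Same-numbered mice did not deviate together (correlations 0.00111, -0.00270 and -0.0362), and not every sample correlated best with its own number, so the numbers were not taken as pairs. With 3 mice a group no single value could pass 0.05 in an exact test, and coverage at each position limits small differences.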
